A study of Arabidopsis thaliana with 12 samples.

Results

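The 9 genes described here are LPA19, AT1G54500, PSBY, PSBW, LHB1B2, AT1G76450, AT4G37230, PSAN and NdhS. They encode subunits and helper proteins of the photosynthetic electron transport chain, but AT1G76450 and AT4G37230 are placed there only by protein family. They are 9 of the 691 Arabidopsis thaliana genes that the array annotation pairs with a probe of their own. The members were taken by name, through 1 probe each that is paired with exactly 1 gene. They were chosen by name with their proline and water values known, so the values of this contrast are given as a description, with no test of their own. Wherever a call or p-value of these genes from the fit over all probes is given, it describes the choice and supports nothing.

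An expression array was used to measure total RNA of wild-type Wassilevskija plants. For 6 samples these plants were given 100 mM proline over 6 h, which the labels describe as reaching toxic cellular levels, and the other 6 came from plants given water. No genotype other than wild type was used. The labels give no organ, plant age or duration of the water treatment, so time and proline cannot be told apart. Nor do they name the source of each sample within a group, and the spread between samples may be technical. In RNA of whole samples, fewer green cells and less transcript per cell cannot be told apart.

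Photosystem II splits water with the light energy that its antenna of light-harvesting proteins collects, and passes electrons through the cytochrome b6f complex to photosystem I. The water-splitting manganese cluster is shielded on the lumen side of the thylakoid by extrinsic proteins, among them PsbO and PsbP. The chloroplast NDH complex returns electrons from ferredoxin to the plastoquinone pool and so feeds cyclic electron flow around photosystem I. Assembly of these complexes needs helper proteins that are not part of the finished machine, and all the proteins described here are made in the cytosol from nuclear genes and imported into the plastid.

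Values are intensities on a scale of 0 to 100, quantile-normalized between samples, with values under 0.0377 set to that floor. A level of 1 probe is not comparable with that of another, so each gene is compared only with itself. The deposited median intensity was 0.269 ± 0.068 in proline and 0.177 ± 0.008 in water (SD, n = 6 each), and proline samples 3 and 4 stood apart at 0.361 and 0.350. Without them the log2 fold change was 3.03 for AT1G76450 (2.79 with all samples), -1.47 for LPA19 (-1.34) and 0.77 for PSBW (0.64). It was -0.70 for PSBY (-0.72) and -0.45 for LHB1B2 (-0.46), and for the other genes it is given beside them. In each group, neighbouring samples (1 and 2, 3 and 4, 5 and 6) resembled each other more than the rest, so 6 values may carry less information than 6 independent plants would. Of 15 marker genes of green tissue, only PRK and SBPASE, both of the Calvin cycle, had a probe of their own. PRK averaged 1.80 in proline and 2.06 in water and was above the floor in all 12 samples, whereas SBPASE was above it in 1 of the 12. None of the 12 root, 10 flower and seed, and 5 vascular markers had such a probe, so the organ could not be checked.

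Of the 9 genes, 3 were higher and 6 lower with proline on average. Their median log2 fold change was -0.27, against -0.03 over all 3097 tested probes. The groups did not overlap for 5 of them, 2 higher and 3 lower, and over all tested probes this held for 22.5%, with 10.4% higher and 12.1% lower. In a limma fit across all probes, 7 of the 9 had a Benjamini-Hochberg adjusted p under 0.05, 3 of them higher and 4 lower, where 38.0% of all tested probes did, 17.1% higher and 20.9% lower. With the replicate number as a block, NdhS was called too, which gave 8 of the 9, against 41.4% of all tested probes. After averaging each pair of neighbouring numbers, which leaves 3 values in a group, 3 of the 9 were called (LPA19, AT1G76450 and AT4G37230), against 17.1% of all tested probes. Since the choice of the genes used this contrast, these counts describe the choice and support nothing.

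**Figure D1:**
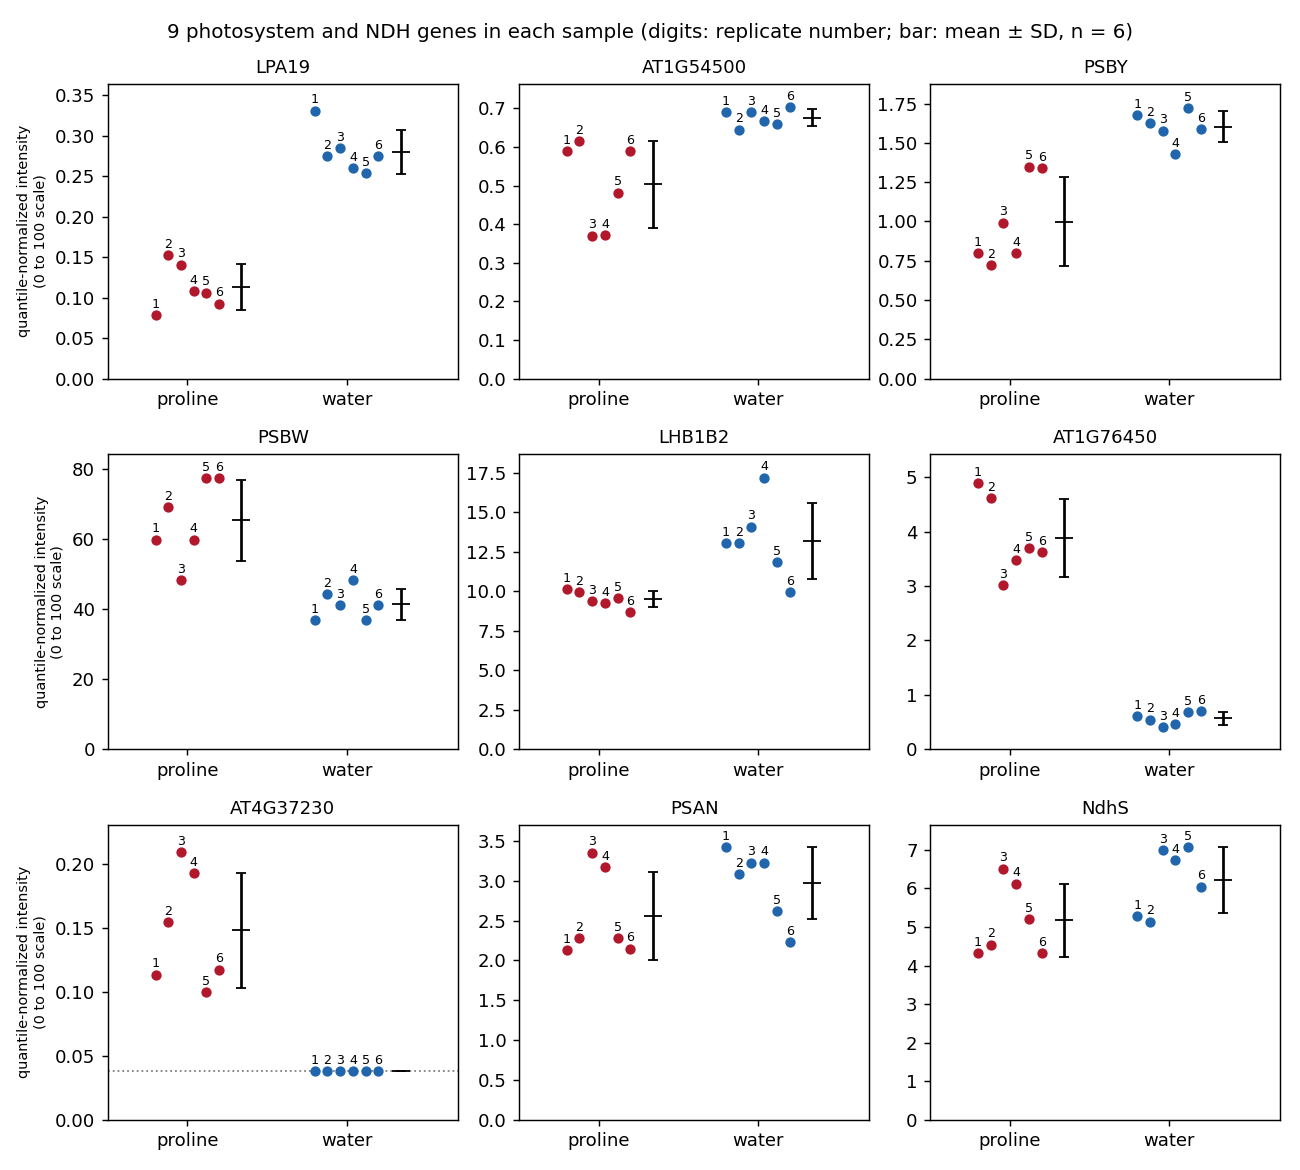
Quantile-normalized intensity (0 to 100 scale) of the 9 genes in the 6 proline and the 6 water samples, with digits for the replicate number and bars for the mean ± SD (n = 6). Every panel starts at 0, the dotted line is the floor of 0.0377, and the groups are separate for LPA19, AT1G54500, PSBY, AT1G76450 and AT4G37230.

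Both genes related to the extrinsic proteins of the oxygen-evolving side were higher with proline. AT1G76450 encodes a protein with the domain of PsbP, the extrinsic subunit that helps photosystem II to hold calcium and chloride. It ranged from 3.02 to 4.89 with a median of 3.66 in proline, against 0.399 to 0.703 with a median of 0.578 in water. The lowest proline sample was above the highest water sample by a wide margin, and the mean was 3.88 ± 0.72 in proline and 0.567 ± 0.121 in water (SD, n = 6 each), a 6.90-fold difference. Paired by number, the log2 difference was 3.0, 3.08, 2.92, 2.91, 2.44 and 2.37 for the numbers 1 to 6. Numbers 5 and 6 had the smallest differences, and there the water samples were the highest of their group. Samples 3 and 4 were the lowest of their group in both treatments. Among the 3439 probes of a sample, ordered from the brightest, AT1G76450 lay at places 94 to 137 in proline and 613 to 1084 in water.

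AT4G37230 encodes a protein of the PsbO family, whose main members stabilize the manganese cluster. It stood at 0.113, 0.154, 0.209, 0.193, 0.0999 and 0.117 in proline samples 1 to 6, and at the floor of 0.0377 in all 6 water samples. As deposited, 5 of the water samples were at 0 and water sample 5 at 0.00852, against 0.0826 to 0.337 in proline. Every proline sample was above every water sample on both scales. The mean in proline was 0.148 ± 0.045 (SD, n = 6). On the log2 scale the proline mean was 1.91 above the floor, at least 3.77-fold over water at this floor, and this bound depends on where the floor is set. Proline samples 3 and 4, with the highest medians of all probes, also had the highest values of this gene, and without them the log2 fold change was 1.57 in place of 1.91. With a floor at the 20th percentile of the positive values it was 0.41, and the gene was no longer called. Nearness to the floor limits its value.

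LPA19 and AT1G54500, helper proteins of photosystem II, had lower means with proline after quantile normalization. LPA19, a thylakoid lumen protein that takes part in processing the precursor of the D1 reaction centre protein, ranged from 0.0789 to 0.153 with a median of 0.107 in proline. In water it ranged from 0.254 to 0.331 with a median of 0.275. The groups were separate, and the means were 0.113 ± 0.028 in proline and 0.280 ± 0.028 in water (SD, n = 6 each), a log2 fold change of -1.34 (SE 0.16). By number the difference ran from -2.07 at number 1 to -0.84 at number 2. These numbers belong to samples that otherwise resembled each other, and the gene varied more within them than between the means of neighbouring numbers, which were -1.46, -1.14 and -1.41. In the values as deposited, proline sample 3, at 0.234, was inside the water range of 0.198 to 0.25, so the groups overlapped there.

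AT1G54500 encodes a rubredoxin-like protein of the thylakoid membrane, an iron protein that photosystem II needs in order to accumulate. In proline it was 0.589, 0.614, 0.370, 0.372, 0.482 and 0.589 in samples 1 to 6. In water all 6 samples lay between 0.645 and 0.704, with a median of 0.679. The groups were separate, but proline sample 2 was close to the lowest water sample. The mean was 0.503 ± 0.112 in proline and 0.676 ± 0.023 in water (SD, n = 6 each), so that the coefficient of variation was 22.2% in proline and 3.35% in water. The log2 fold change was -0.46 (SE 0.14), and -0.27 without proline samples 3 and 4, which were the lowest. In the values as deposited its direction turned: it was 0.617 ± 0.073 in proline and 0.540 ± 0.032 in water (SD, n = 6 each), a log2 fold change of 0.19. The median of all probes was 0.41 higher with proline on that scale, and relative to it the gene was at -0.23, against -0.43 after quantile normalization.

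The small subunits of photosystem II differed in sign after quantile normalization. PSBY, whose precursor is cut into a pair of proteins with 1 membrane helix each, had 0.801, 0.722, 0.992, 0.797, 1.35 and 1.34 in proline samples 1 to 6. In water it ranged from 1.43 to 1.72 with a median of 1.61. All proline samples lay below all water samples, and the mean was 1.0 ± 0.28 in proline and 1.60 ± 0.10 in water (SD, n = 6 each), a log2 fold change of -0.72 (SE 0.16). The difference was largest in the means of numbers 1 and 2 (-1.12), intermediate in those of 3 and 4 (-0.76) and smallest in those of 5 and 6 (-0.30). The water samples were alike across these numbers, so the range comes from the proline samples. The deposited values of both groups overlapped, with 0.827 to 1.48 in proline and 1.19 to 1.69 in water.

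PSBW, a small subunit that holds photosystem II and its antenna together in supercomplexes, was 59.9, 69.1, 48.3, 59.9, 77.5 and 77.5 in proline samples 1 to 6. In water it was 36.8, 44.4, 41.2, 48.3, 36.8 and 41.2. Proline sample 3 equalled water sample 4, and the other proline samples lay above all water samples. The mean was 65.4 ± 11.5 in proline and 41.4 ± 4.4 in water (SD, n = 6 each), a log2 fold change of 0.64 (SE 0.13). PSBW was among the brightest probes of every sample, at places 8 to 12 of 3439 in proline and 12 to 16 in water. Quantile normalization gives each place 1 value, so values repeat and neighbouring places are far apart there. At the top of the deposited scale stood 3 or 4 probes in each proline sample and 5 to 8 in each water sample. Whether this moved the places of PSBW was not tested. As deposited, the intensities of PSBW were 53.5 ± 7.9 in proline and 44.3 ± 3.2 in water (SD, n = 6 each). The ranges of 40.6 to 62.3 in proline and 38.1 to 47.5 in water overlapped. Under median centring the log2 fold change was -0.31. Against the median probe it stood at -0.21 there, at -0.15 as deposited, at 0.61 under cyclic loess and at 0.68 after quantile normalization, so the direction of PSBW is not settled.

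LHB1B2 encodes a chlorophyll a/b-binding protein of the main antenna of photosystem II. It ranged from 8.70 to 10.1 with a median of 9.49 in proline, against 9.97 to 17.2 with a median of 13.1 in water. The groups met at their edges, because proline samples 1 and 2 were at or above water sample 6. The mean was 9.51 ± 0.52 in proline and 13.2 ± 2.4 in water (SD, n = 6 each), a log2 fold change of -0.46 (SE 0.12). Here the water samples were the more variable ones, with a coefficient of variation of 5.46% in proline and 18.3% in water, and water sample 4 was the highest at 17.2. The difference by number was lower in proline at all 6 numbers, from -0.89 at number 4 to -0.20 at number 6. The size depended on the scaling, at -0.95 under median centring and -0.24 under cyclic loess. Antenna genes of this type have close copies, so it is uncertain which of these transcripts the probe measured.

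PSAN and NdhS, of photosystem I and the NDH complex, had the smallest log2 fold changes of the 9 after quantile normalization, though not under median centring or without proline samples 3 and 4. PSAN, a lumen-side subunit of photosystem I near the docking site of plastocyanin, ranged from 2.13 to 3.36 with a median of 2.28 in proline and from 2.23 to 3.43 with a median of 3.16 in water. The groups overlapped over nearly all their range. Proline samples 3 and 4 stood at 3.36 and 3.17 and the other proline samples between 2.13 and 2.28, while in water samples 5 and 6 were lowest at 2.62 and 2.23. By number PSAN was lower with proline at 5 of the 6 numbers, with differences from -0.69 at number 1 to 0.06 at number 3. Its log2 fold change was -0.22 (SE 0.15), -0.41 without proline samples 3 and 4 and -0.58 under median centring, where PSAN was called lower both times, and -0.004 in the values as deposited.

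NdhS is the NDH subunit that helps to bind ferredoxin. It ranged from 4.32 to 6.52 with a median of 4.88 in proline, against 5.14 to 7.08 with a median of 6.40 in water. Its groups overlapped as well, yet NdhS was lower with proline at all 6 numbers, by log2 differences of -0.29, -0.18, -0.10, -0.14, -0.44 and -0.48. Samples 3 and 4 were high in both treatments and samples 1 and 2 low in both, so the overlap of the groups follows the replicate number in part. The mean was 5.17 ± 0.95 in proline and 6.22 ± 0.86 in water (SD, n = 6 each), a log2 fold change of -0.27 (SE 0.14). It was -0.42 without proline samples 3 and 4 and -0.64 under median centring, and NdhS was called lower in both, against -0.02 under cyclic loess.

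**Figure D2:**
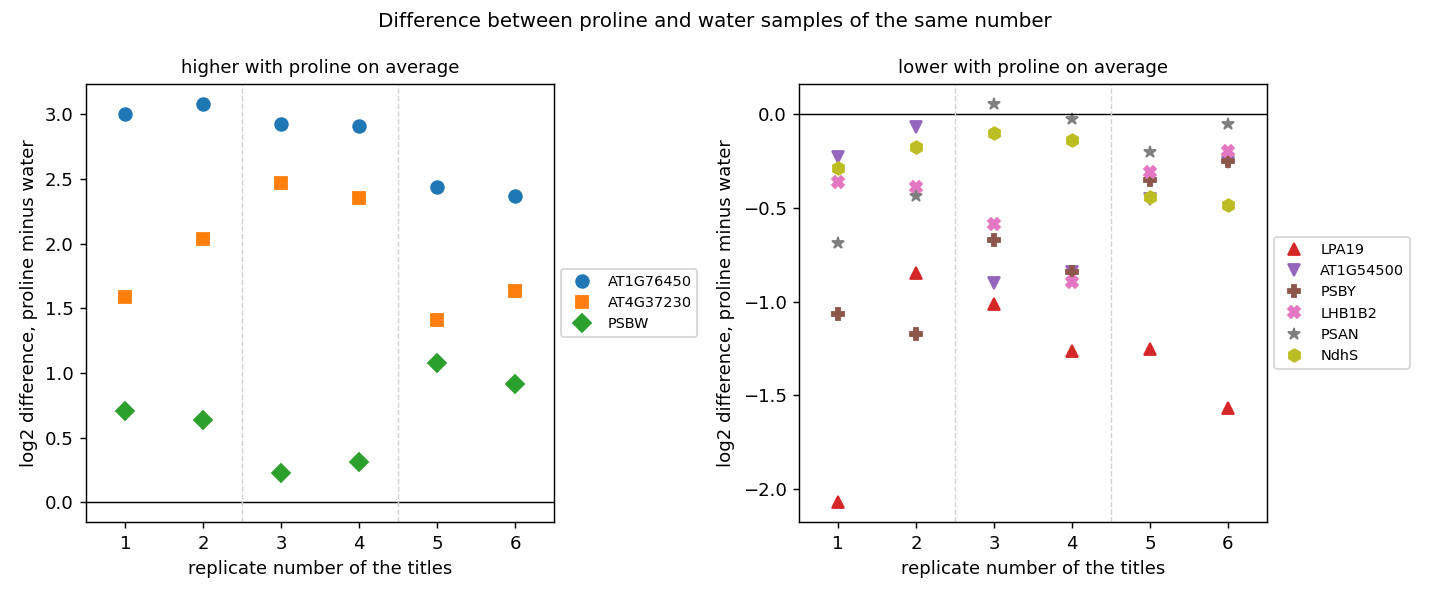
Log2 difference between the proline and the water sample of the same replicate number for the 3 genes higher with proline on average (left) and the 6 lower (right). Dashed lines separate the numbers 1 and 2, 3 and 4, and 5 and 6. Only PSAN, at number 3, lies on the other side of 0 from its average.

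Set side by side, the differences by number did not follow 1 order across the genes. The means of numbers 3 and 4 held the largest difference of AT1G54500 (-0.87), LHB1B2 (-0.74) and AT4G37230 (2.41), and the smallest difference of PSBW (0.27), LPA19 (-1.14), NdhS (-0.12) and PSAN (0.01). PSBY and AT1G76450 were smallest at numbers 5 and 6, as were LHB1B2 (-0.25) and AT4G37230 (1.52). Of the 9 genes, 8 had 1 direction at all 6 numbers, PSAN being the exception, and among the 620 tested probes with 1 gene this held for 40.3%. This count comes from the contrast that chose the genes. In 8 of the 9, all but AT4G37230, every sample was above the floor, and 6 of these 8 had the larger coefficient of variation in proline; of the 487 probes with 1 gene that were above the floor throughout, 62.6% did.

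**Figure D3:**
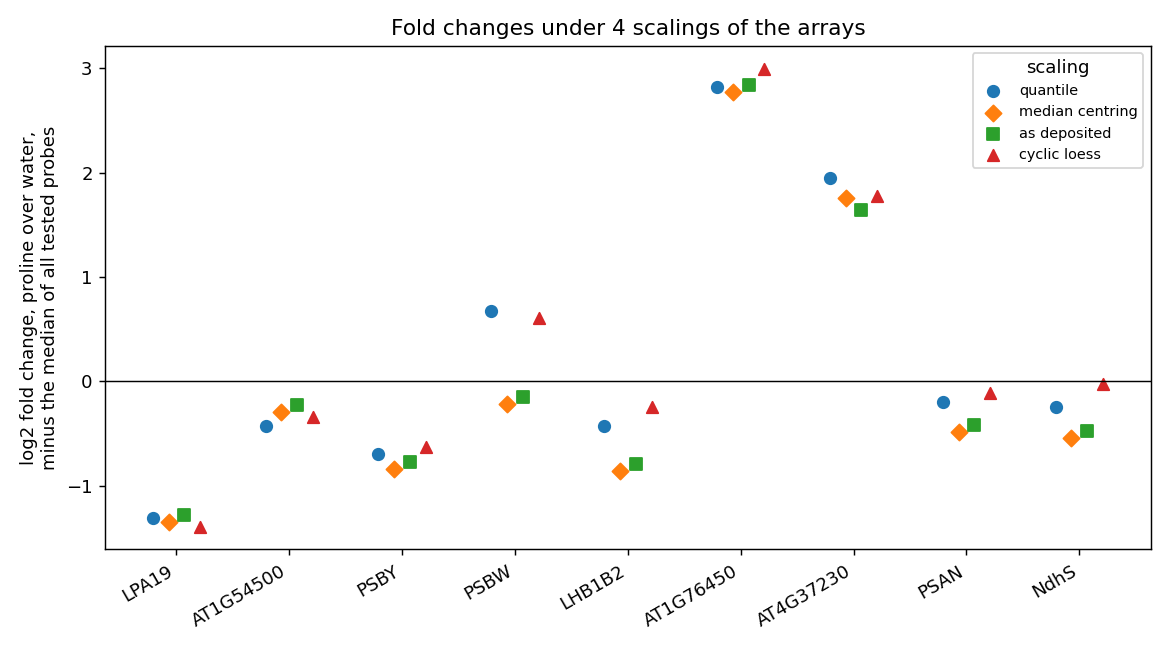
Log2 fold change of the 9 genes, proline over water, minus the median of all tested probes, under quantile normalization, median centring, the values as deposited and cyclic loess. LPA19 and AT1G76450 keep a similar size, whereas PSBW lies at 0.68 under quantile normalization and -0.21 under median centring. AT4G37230 also varies little, but its water values were set to the floor, so its size depends on that floor.

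The scaling of the arrays moved the genes unequally. Relative to the median of all probes, LPA19 lay between -1.39 and -1.28 under the 4 scalings, AT1G76450 between 2.77 and 2.99, AT4G37230 between 1.64 and 1.94, and PSBY between -0.84 and -0.63. The range of AT4G37230 holds only for this floor, to which its water values were set. With a floor at the 20th percentile its log2 fold change was 0.41. AT1G54500 stayed between -0.43 and -0.23. The antenna, photosystem I and NDH genes had wider ranges, from -0.86 to -0.24 for LHB1B2, -0.48 to -0.11 for PSAN and -0.54 to -0.02 for NdhS. All of these kept their sign relative to the median under the 4 scalings, and PSBW alone of the 9 did not.

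A list of further genes of the light reactions, made from symbols, held 170 genes of the RefSeq table. Only 11 of them had a probe of their own, 6 of which are among the genes above, and 8 more were present only on probes shared by several genes, which name no gene here. Of the 5 others, 3 were tested and 0 passed the limma test, where 38.0% of all tested probes did, and 0 had an unadjusted p under 0.05. NdhN, a subunit of the NDH complex, and CRR41, an assembly factor of that complex, were at the floor in all 12 samples and were not tested. The median log2 fold change of the 3 tested genes was 0.04.

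PSB27 is related to LPA19 and takes part in the repair of photosystem II after light damage. It was 0.309, 0.268, 2.41, 2.30, 1.94 and 2.03 in proline samples 1 to 6, against 0.508, 0.595, 1.07, 1.13, 1.16 and 1.16 in water. Samples 1 and 2 were low in both treatments and lower still in proline, while the other 4 proline samples were above all water samples. The log2 fold change was 0.31 (SE 0.59, limma adjusted p = 0.719), with mean log2 differences of -0.93 at numbers 1 and 2, 1.09 at 3 and 4 and 0.77 at 5 and 6. It ran from 0.09 without proline sample 3 to 0.73 without proline sample 2, and was -0.25 without proline samples 3 and 4, passing the test in none of these. LPA19 was lower with proline at each of these numbers. CCB3, which helps to attach a haem of cytochrome b6f, averaged 0.112 ± 0.052 in proline and 0.147 ± 0.078 in water (SD, n = 6 each; limma adjusted p = 0.609). PIFI, a protein needed for the activity of the NDH complex, averaged 0.534 ± 0.101 in proline and 0.514 ± 0.036 in water (SD, n = 6 each; limma adjusted p = 0.847). In the values as deposited every proline sample of PIFI was above every water sample and it passed the test (log2 fold change 0.63, limma adjusted p = 0.0113), 0.22 above the median probe on that scale.

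For 3 of the genes the profiles over the 12 samples were set against the other 611 tested probes with 1 gene, each centred on its own mean. AT1G76450 was nearest to AT3G06200 and AT5G26850, with a mean absolute difference of 0.27 and 0.28 on the log2 scale, where the median over all 611 was 1.40. Both have log2 fold changes like its own, of 2.38 and 2.32. LPA19 was nearest to GH9B12, a glycosyl hydrolase of family 9, and chr31, a chromatin remodelling factor, at 0.20 and 0.24 (median 0.71). PSBW was nearest to AT5G10920, an argininosuccinate lyase, and AT1G25500, whose log2 fold changes were 0.74 and 0.65 after quantile normalization. The direction of PSBW itself depended on the scaling. These genes lay at 0.13 and 0.14 from PSBW (median 0.47). These distances include the difference between treatments, and within a treatment the neighbours of LPA19 diverged: LPA19 was lowest in proline sample 1, chr31 in proline sample 3 and GH9B12 in proline sample 6.

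**Figure D4:**
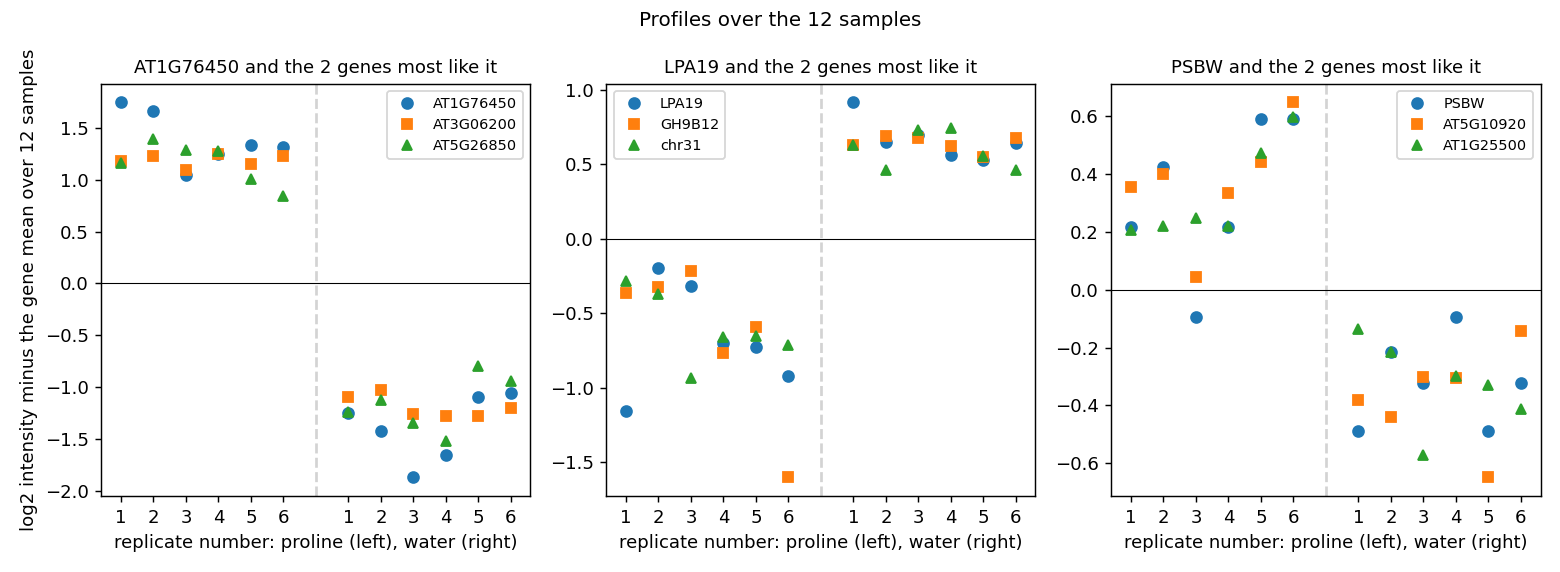
Log2 intensity minus the mean of the gene over the 12 samples, for AT1G76450, LPA19 and PSBW and the 2 genes nearest to each, in proline samples 1 to 6 (left of the dashed line) and water samples 1 to 6 (right). The 3 panels have different vertical ranges, and in those of AT1G76450 and LPA19 the treatments are separate for all genes shown.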

How the data were processed

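The data are 1 table of array intensities deposited by the authors for 12 samples, on a linear scale of 0 to 100 as read from the values. How the arrays were scanned and scaled, their type and the genome build were not given in the sources used here. Groups and replicate numbers come from the titles. Of 3439 probes, the platform annotation, which can be old, pairs 692 with 1 gene, 870 with several and 1877 with none; gene numbers tied 690 of the 692 to names of TAIR10.1. After quantile normalization, any value under 0.0377 (5th percentile of the positive deposited intensities) was raised to that floor before the log2 step. This left 342 probes constant at the floor and untested. The other 3097 were fitted with limma 3.58.1 under R 4.3.3 (lmFit, eBayes, two-sided p, Benjamini-Hochberg adjustment, threshold 0.05), with the group as the only factor. This procedure was tested on simulated data with independent samples, so that test does not cover the resemblance between samples given below.

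The 9 genes, the lists and the alternatives were chosen with earlier results of these data known. Named are all 9 genes, the measured list genes and, for 3 genes, the 2 nearest profiles. Same-numbered proline and water samples deviated together from their group means (r = 0.46, 0.47, 0.29, 0.30, 0.20 and 0.16). Each r was above the limit of 0.1 and above the highest r of its number with an unlike number. Those were 0.16, 0.16, 0.17, 0.17, 0.08 and 0.08, so the limit alone does not separate pairs. The differences by number read the numbers as pairs. The main fit did not, so its SE and p leave the pairing out, and only the replicate block takes it in. Neighbouring numbers (1 and 2, 3 and 4, 5 and 6) were closer, at a median absolute log2 distance of at most 0.178 in proline and 0.162 in water, than other samples of a group, at no less than 0.288 in proline and 0.227 in water. The number of arrays limits the precision. Planned promoter motifs and protein comparisons were not run, since no sequences were used here.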

Additional observations from a re-analysis of the deposited data

How the results depend on the processing

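Each result was recomputed under other scalings (median centring, cyclic loess, none), other floors (20th percentile, none), without the 25% dimmest probes, with the replicate block, with averages of neighbouring numbers, and with samples left out. Over all probes 1176 changed; 530 did with averages of neighbouring numbers, 1282 with the replicate block, and 1075 to 1136 without each replicate in turn. Of these calls 45.0% were higher with proline, against 39.8% under median centring and 87.0% in the values as deposited. Of the 3 other tested genes of the light reactions, 0 were called, 1 in the values as deposited, and 0 without any single replicate. The sign of AT1G54500 turned in the values as deposited (0.19), and that of PSBW under median centring (-0.31), where the median of all probes was at 0.41 and -0.10. Among the 9 genes, AT1G54500 and PSBW lost their calls and PSAN and NdhS gained one under median centring (2 higher, 5 lower). As deposited, AT1G54500, PSBY and PSBW lost theirs (2 higher, 2 lower), and under cyclic loess LHB1B2 did (3 higher, 3 lower). Of all tested probes, 37.0% were called under median centring, 44.4% as deposited and 37.6% under cyclic loess. AT4G37230 lost its call with a floor at the 20th percentile (limma adjusted p = 0.060). With the replicate block NdhS was called (limma adjusted p = 0.0495), and no other call among the 9 changed under the block. As the genes were chosen with this contrast known, calls among the 9 show only how they depend on the processing. Without proline samples 3 and 4 all 9 genes were called, 3 higher and 6 lower, against 35.6% of all tested probes. Leaving out each replicate in turn left 3 higher and 4 lower among the 9 each time, against 34.8% to 36.8% of all tested probes. With no floor AT4G37230 had a log2 fold change of 10, a value set by the zeros in water and no measure of size, and without the dimmest 25% of probes it was not tested.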
